A study of Homo sapiens with 18 samples.

Results

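The regions described here are MAX peaks inside gene bodies that were found with all 3 forms of MYC in the series. A member is a peak of the wild-type (WT) list, on chromosomes 1 to 22 and X, that shares at least 1 bp with a peak of the 3A list and with one of the 7A list. Its summit also lies inside a protein-coding gene and more than 1000 bp from every outer end of a protein-coding gene. This rule gave 6791 members, which is 19.6% of the 34617 WT peaks on these chromosomes (95% Clopper-Pearson interval 19.2 to 20) and 29.3% of the 23156 WT peaks overlapped in both mutant lists (28.7 to 29.9). Over all WT peaks 66.9% were overlapped in both. The members were chosen by their presence in the 3 lists and by the position of the summit, so neither is a result below.

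The cells were U2OS, a human osteosarcoma line, with their own MYC knocked out (U2OS-MYC-KO) and a doxycycline (Dox) inducible MYC put in, either WT or a mutant that the labels call 3A or 7A. They received Dox at 1 µg/mL for 24 h or PBS for 24 h, and 10% mouse NIH3T3 cells were mixed in after fixation as a reference genome (ChIP-Rx). The labels describe 12 MAX immunoprecipitations, 2 replicates in each of 6 groups, and 6 inputs. Each of the 3 lists covers 1 MYC form. Dox and no Dox, or replicates, are not separated in them, so every value below describes 1 list without a replicate check. Whether the no Dox libraries were pooled with the Dox ones or served as their control is not known. The background behind each fold enrichment, input or no Dox, is therefore not known either. No difference between MYC forms was tested. All lines lack endogenous MYC, whatever the form they carry. The titles and the antibody field name MAX, whereas the protocol text describes an anti-FLAG antibody, and the titles are followed here. Expression was not analysed here, so markers of bone can be described only by their peaks.

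MAX is a small basic helix-loop-helix leucine zipper protein. It pairs with MYC, and also with MXD proteins, MNT and MGA, and the pairs bind E-boxes, of which CACGTG is the classical one. A MAX peak therefore does not say which partner was there. Gene bodies are mostly introns, and they hold enhancers as well as interior start sites from which shorter transcripts begin.

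Some members sat on interior start sites, and sequences of a few of them, chosen by the rule below, are shown. RefSeq start windows (250 bases before to 50 after a listed start, GRCh38.p14) were used for this. The following stretches lie before an interior start and reach at most 60 bases to each side of the WT summit. They are written 5′ to 3′ on the gene's strand, and CACGTG is in capitals. They belong to the 6 members with the highest WT fold enrichment among those with a CACGTG in such a stretch of at least 50 bases. Stronger members with CACGTG in the start window, such as those at SLC19A1 (149.8 in WT) and HDHD5 (76.4), are not among them.

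SCAP (chr3:47475942-47476049, minus strand): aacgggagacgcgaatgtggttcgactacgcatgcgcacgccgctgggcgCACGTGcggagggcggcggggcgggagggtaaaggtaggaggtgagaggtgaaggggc
ZNF532 (chr18:58863962-58864082, plus strand): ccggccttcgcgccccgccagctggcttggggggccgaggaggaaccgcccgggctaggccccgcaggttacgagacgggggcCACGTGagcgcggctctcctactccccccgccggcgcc
GRAMD4 (chr22:46576838-46576949, plus strand): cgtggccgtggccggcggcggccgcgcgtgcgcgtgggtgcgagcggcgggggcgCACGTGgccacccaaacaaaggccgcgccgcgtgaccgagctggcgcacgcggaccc
CLUAP1 (chr16:3500852-3500972, plus strand): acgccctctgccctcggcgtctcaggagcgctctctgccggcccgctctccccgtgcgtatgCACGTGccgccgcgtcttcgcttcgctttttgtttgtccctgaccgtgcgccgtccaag
PRDM15 (chr21:41863320-41863440, minus strand): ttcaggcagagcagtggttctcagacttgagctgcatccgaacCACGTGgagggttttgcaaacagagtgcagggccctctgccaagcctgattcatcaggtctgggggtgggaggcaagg
DGLUCY (chr14:91113995-91114072, plus strand): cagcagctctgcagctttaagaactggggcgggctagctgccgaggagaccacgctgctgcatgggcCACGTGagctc

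The E-box centre lay 7.5 bases from the WT summit at SCAP, which encodes the escort protein of the SREBP lipid regulators, 4.5 at CLUAP1 and 6.5 at GRAMD4. It lay 9.5 bases away at DGLUCY, 14.5 at PRDM15 and 25.5 at the zinc-finger gene ZNF532. Fold enrichment, the peak caller's ratio of signal to background at the summit, was 68.2 (WT), 39.5 (3A) and 38.3 (7A) at SCAP. At CLUAP1 it was 57.3, 46.0 and 62.5, and at GRAMD4 58.3, 11.4 and 18.7. Each list has its own scale, so these values rank a site within its list and do not measure a change between lists. The 3A and 7A summits lay at most 14 bases from the WT summit at all 6 of these members.

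The 3 strongest members with such a stretch and no CACGTG anywhere in the window were at EIF5A, a translation factor, URI1, a prefoldin-like protein, and SNX12, a sorting nexin. They are shown for contrast, with the related letters CACGCG in capitals where present.

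EIF5A (chr17:7308239-7308359, plus strand): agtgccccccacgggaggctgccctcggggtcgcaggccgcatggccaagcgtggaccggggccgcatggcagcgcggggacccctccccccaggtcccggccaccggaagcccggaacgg
URI1 (chr19:29942096-29942216, plus strand): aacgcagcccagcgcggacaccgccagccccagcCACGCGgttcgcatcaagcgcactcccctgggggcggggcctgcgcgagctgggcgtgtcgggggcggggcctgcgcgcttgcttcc
SNX12 (chrX:71068463-71068583, minus strand): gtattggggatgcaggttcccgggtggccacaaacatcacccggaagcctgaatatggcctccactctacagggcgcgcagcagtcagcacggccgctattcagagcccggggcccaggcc

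EIF5A had fold enrichments of 135.5 (WT), 40.0 (3A) and 19.4 (7A). URI1 had 112.2, 48.2 and 57.3, and SNX12 had 80.4, 28.9 and 21.4. Neither EIF5A nor SNX12 held CACGCG on either strand of the stretch shown, and URI1 held it 1 time.

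Interior starts with an E-box carried members more often than those without one. Of 4680 interior starts of protein-coding genes (starts over 1000 bp from every outer gene end, with starts less than 300 bases apart taken as 1), 592 had a member summit in their window, or 12.6%. With CACGTG in the window this was 88 of 290 (30.3%, 95% Clopper-Pearson interval 25.1 to 36.0), and without it 504 of 4390 (11.5%, 10.6 to 12.5). Read the other way, 14.9% of the windows with a member (12.1 to 18.0) held CACGTG, against 4.79% of the 3985 windows with no WT summit (4.15 to 5.50) and 7.27% of all 34961 listed start windows. These intervals cover counting error only, and windows of 1 gene are not independent.

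Windows with a member were also richer in G and C, with a median of 69.0% against 54.3% in windows with no WT summit. The E-box difference was present within classes of base composition. In windows over 65% G and C, 48.7% of those with CACGTG (39.4 to 58.1, n = 117) and 26.2% of those without (23.8 to 28.8, n = 1240) had a member. Between 50% and 65% the shares were 22.7% (15.5 to 31.3) and 9.97% (8.55 to 11.6). Up to 50% they were 7.41% (2.06 to 17.9, n = 54) and 1.29% (0.787 to 1.98), and the intervals did not overlap there either.

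Other motifs were counted in the same windows on both strands, with overlapping matches allowed. CACGCG, a variant E-box, stood in 25.8% of the windows with a member (22.4 to 29.6) and in 6.68% of those with no WT summit (5.92 to 7.49). GGGCGG, the GC box bound by SP factors, stood in 77.0% (73.4 to 80.4) and 33.9% (32.4 to 35.4). CACATG, another E-box variant, was less frequent with a member, at 7.94% (5.89 to 10.4) against 12.7% (11.7 to 13.8). TGACTCA, the AP-1 site, stood in 4.90% (3.30 to 6.96) and 5.87% (5.16 to 6.65). In all listed start windows CACGCG was found in 11.4%, GGGCGG in 45%, CACATG in 11.1% and TGACTCA in 4.92%. Only CACATG and TGACTCA, of these motifs, were not more frequent in windows with a member. The median share of G and C was 69.3% in interior start windows with CACGCG and 49.7% in those with CACATG. It was 68.7% in those with GGGCGG and 48.3% in those without it. The part of base composition in the shares of these motifs was not tested.

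Members with CACGTG in the start window also had higher fold enrichment. In WT the median of the 88 members was 28.8 (95% interval of the median 23 to 31.5; lowest 6.82, highest 149.8), against 13.0 (12 to 14.1; 2.77 to 135.5) in the 504 members without it. In 3A the medians were 17.9 (15.4 to 22.1) and 12.6 (11.8 to 13.4), and in 7A 21.1 (17.9 to 24.6) and 11.9 (11.3 to 12.5). The median with CACGTG was thus 2.21 times that without in WT, 1.43 times in 3A and 1.77 times in 7A. Whether these ratios differ between MYC forms was not tested. The median share of G and C was 68.2% with and 69.0% without CACGTG. In windows over 65% G and C the WT medians were 30.1 with (n = 57) and 14.6 without it (n = 325), and between 50% and 65% they were 17.1 (n = 27) and 11.1 (n = 159). Up to 50% they were 53.7 and 9.64, from only 4 and 20 members. With CACGCG the WT median was 20 (16.6 to 22.7) against 12.6 (11.7 to 13.5) without. With GGGCGG it was 14.6 (13.3 to 16) against 12.5 (11.1 to 15.1), intervals that overlap.

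**Figure D1:**
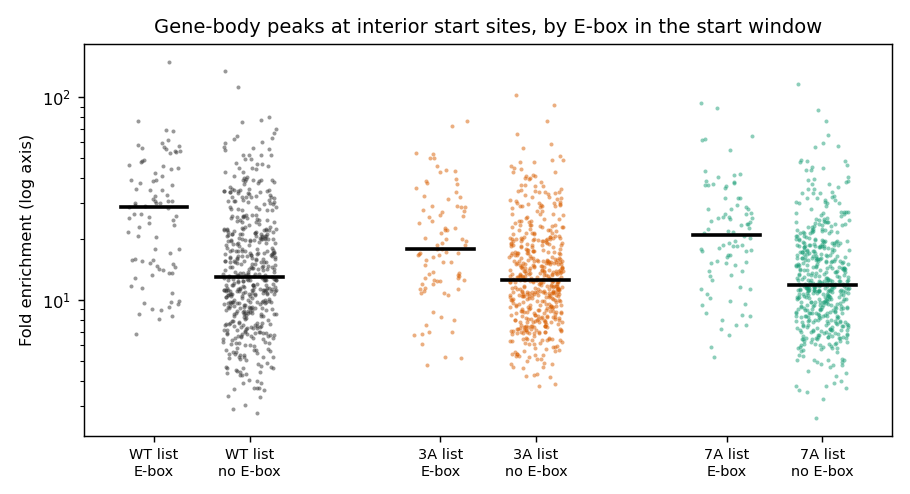
Fold enrichment (log axis) of the 592 members at interior start sites, by peak list and by whether CACGTG stands in the start window (88 with, 504 without); points are members and bars are medians. The medians with the E-box are 28.8, 17.9 and 21.1 in the WT, 3A and 7A lists, above 13.0, 12.6 and 11.9 without it, with wide overlap of the points.

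Summits sat close to the E-box. The median distance from the nearest CACGTG centre in the window was 15 bp for WT, 13.5 bp for 3A and 17.0 bp for 7A summits, and 49 of 88 WT summits lay within 20 bp. For CACGCG the median was 16.5 bp in WT and 26.5 and 27.5 bp in 3A and 7A, and for GGGCGG 37.5, 39.0 and 42.0 bp. The window limits all of these distances.

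Common peaks at gene ends had a like share of E-boxes. At 4352 starts within 1000 bp of an outer gene end with a common peak in the window, 16.1% held CACGTG (15 to 17.2), and the interval overlaps that of the members. Their WT medians were 29.4 with and 14.8 without it. Peaks of the WT list alone inside gene bodies were in only 39 interior start windows, 5 of them with CACGTG, which is 12.8% with an interval of 4.30 to 27.4.

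Most members were not at a listed start. Listed starts were available on all chromosomes but chromosome 8, which has 268 members. Of the other 6523 members, 1242 lay within 1000 bp of a listed start of a protein-coding gene (19.0%, 18.1 to 20). Here all listed starts count, also those up to 1000 bp from an outer gene end. A further 202 lay near the start of a non-coding gene only (3.10%, 2.69 to 3.55), and 5079 near no listed start (77.9%, 76.8 to 78.9). The table lists starts for 15812 of 19974 protein-coding genes, so the last share is an upper limit. The 3 sets had median WT fold enrichments of 15.5, 14.4 and 11.3, and median widths of 997, 817 and 552 bp. In 3A the medians were 13.0, 12.3 and 10.5, and in 7A 12.6, 11.9 and 9.86. Members near starts were thus the stronger ones in each list, and the broader ones in WT.

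Peaks of the WT list alone in gene bodies were near listed starts of protein-coding genes less often, in 4.38% of 3218 cases (3.70 to 5.15). The gap was present among peaks of like WT fold enrichment. Between 10 and 15, 17.6% of the members (15.7 to 19.7, n = 1492) and 4.36% of the WT-only peaks (2.89 to 6.28, n = 619) lay within 1000 bp of such a start. Their median widths were 626 and 329 bp, and the part of width in this gap was not tested.

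Non-coding starts with a member summit in their window numbered 180, and 177 members covered them. The strongest were SLC9A3-AS1 and SLC9A3-OT1, which share a member in SLC9A3, a sodium-proton exchanger gene, with fold enrichments of 88.0 (WT), 66.1 (3A) and 69.2 (7A). CPEB1-AS1 followed at 82.9, 48.5 and 82.0, HDHD5-AS1 at 76.4, 22.8 and 54.9, and BRWD1-AS2 at 70.2, 76.1 and 115.8. Of the 177 members, 83 were over 1000 bp from any listed start of a protein-coding gene. These few were named after their values were seen. The peaks of 19 members held a whole miRNA hairpin, 20 hairpins of 1562 listed, led by MIR760 in BCAR3 at 79.6 (WT), 23.2 (3A) and 22.4 (7A).

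By WT fold enrichment, the strongest member was a peak in LARP1, which encodes an RNA-binding regulator of ribosomal protein mRNAs (hg38, chr5:154754334-154757578). Its fold enrichments were 201.6 (WT), 69.9 (3A) and 73.3 (7A). It lay 62635 bp from the nearest outer end of a protein-coding gene but 407 bp from a listed start of LARP1. An end of a gene of another type lay within 1000 bp of it, as was so for 640 of all members. KLF16, a zinc-finger factor (chr19:1861661-1865134), had 185.1, 62.5 and 60.9, at 677 bp from a listed start of its own. SLC19A1, the reduced folate carrier (chr21:45541230-45542019), had 149.8, 50.1 and 37.0, at 32 bp from a listed start. These 3 members stood far inside the outer limits of their genes and close to another start.

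PTPRN2, a phosphatase-like protein of secretory vesicles (chr7:158096689-158098973), held the second strongest WT member. Its values were 192.2, 165.0 and 171.7, which made it second in 3A and first in 7A among all members. It was 489860 bp from the nearest outer gene end. The nearest listed start, of NCAPG2, was farther away than that, at 606841 bp. Starts are not listed for all genes, so an unlisted start of PTPRN2 near this member would not have been seen. UBE2V2, a ubiquitin-conjugating enzyme variant, had 174.6, 105.8 and 93.3. ZNF331, a zinc-finger gene, had 148.2, 26.1 and 14.8, and so had rank 6 in WT but rank 574 in 3A and 1957 in 7A. TBL1XR1, a corepressor subunit, had 138.7, 54.3 and 42.1, and its 7A summit lay 652 bp from the WT one. NME2, a nucleoside diphosphate kinase whose member also lies in the NME1-NME2 readthrough gene, had 136.2, 60.6 and 90.9. EIF5A is given above, and TFAP4, which encodes an E-box binding factor, closed the 10 with 132.8, 62.2 and 76.5. All 10 were highest in WT, which the choice by WT value favours. The members of NME2, EIF5A and TFAP4 lay 1183, 1300 and 1672 bp from a gene end, close to the limit of 1000 bp.

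**Figure D2:**
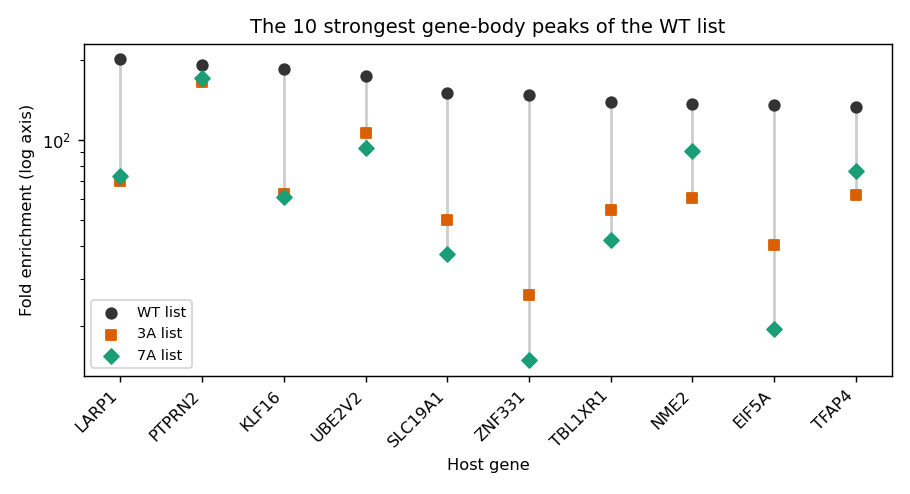
Fold enrichment (log axis) in each peak list of the 10 members with the highest WT value, by host gene. The mutant values run from close to WT at PTPRN2 (165.0 and 171.7 beside 192.2) to far lower at ZNF331 (26.1 and 14.8 beside 148.2); each list has its own scale.

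Ordered by the mutant lists, other members led. ZSCAN30, a zinc-finger gene, had the highest 3A value at 170.0, with 85.3 in 7A and 49.1 in WT. AEBP2, a cofactor of Polycomb repressive complex 2, followed PTPRN2 with 136.7 in 3A, 69.3 in 7A and 55.3 in WT, and C14orf39, a gene of meiotic chromosome pairing, was number 5 in 3A at 102.8. In 7A, DLL3, an inhibitory Notch ligand, was second at 127.5, with 22.9 in 3A and 37.5 in WT. BRWD1 had 115.8 in 7A, KIF25, a kinesin, 112.4, and PTMA, which encodes prothymosin alpha, 105.0. Of the 100 strongest members of each list, 37 were shared by WT and 3A, 37 by WT and 7A, 52 by 3A and 7A, and 26 by all. Across the 6791 members, the Spearman correlation of fold enrichment was 0.648 between WT and 3A, 0.638 between WT and 7A and 0.702 between 3A and 7A. The points share their sites, so the correlation is given as a description.

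The order also depended on the measure. By −log10 q, LPO, the lactoperoxidase gene, led the members with 7669 (chr17:58249354-58250303), second in the whole WT list, although its fold enrichment of 126.6 had rank 13 among members. A member in LOC124904958 (4992), SLC29A1, a nucleoside transporter gene (4166), URI1 (4042) and NME2 (3999) followed. This order was added after the values were seen.

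The bulk of the members was much weaker. WT fold enrichment had a median of 12.1 (interval of the median 11.9 to 12.4), with 10% of members under 5.59 and 10% over 32.5; 239 members exceeded 50 and 21 exceeded 100. Medians were 11 (10.8 to 11.1) in 3A and 10.5 (10.3 to 10.7) in 7A. The members were weaker and narrower than common peaks at gene ends, whose medians were 16.4, 14.3 and 13.9, and slightly stronger than common peaks outside genes, with 11.2, 10.5 and 9.99. The gene-end median was 1.35 times that of the members in WT, 1.30 times in 3A and 1.33 times in 7A. Median widths of the members were 613 bp in WT, 540 bp in 3A and 598 bp in 7A, against 1005, 862 and 928 bp at gene ends and 538, 491 and 538 bp outside genes.

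**Figure D3:**
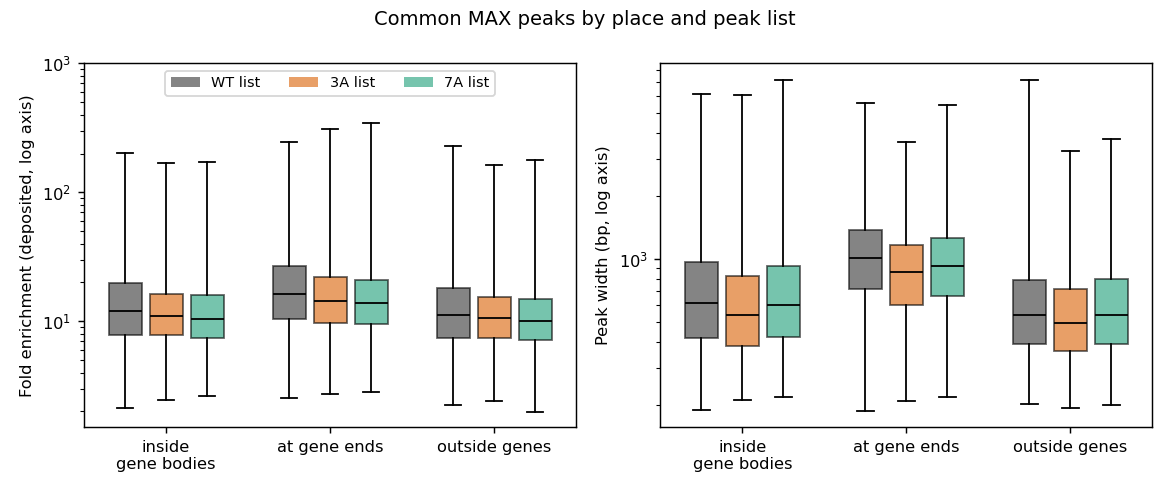
Fold enrichment (left) and width in bp (right), both on log axes, of common peaks inside gene bodies (n = 6791), at gene ends (n = 9583) and outside genes (n = 6782) in each list; boxes are quartiles with the median, whiskers the lowest and highest value. In each list the gene-end boxes sit highest, and those inside gene bodies lie slightly above those outside genes.

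Summit positions were close between lists. Members overlap a peak of each mutant list by rule, and this limits how far apart the summits can lie. Common peaks at gene ends and outside genes, chosen by the same overlap, had similar median distances in both mutant lists. The closeness is therefore not particular to the members. The 3A and the 7A summit each lay a median of 14.0 bp from the WT summit, and within 50 bp for 83.1% of members in 3A and 81.5% in 7A. It was over 500 bp away for 253 members in 3A and 257 in 7A. These include the member of TGIF1, a SMAD corepressor, with shifts of 2428 and 2429 bp, and one of RUNX1, a bone and blood cell factor, with 1162 and 1157 bp. More than 1 partner peak was found for 153 members in 3A and 97 in 7A, and the one with the highest fold enrichment was used. The members had 6757 distinct partner peaks in 3A and 6742 in 7A, so that a few share one. At TGIF1 and RUNX1 both mutant lists thus place the top of a broad WT peak (3772 and 2716 bp) at another point than WT does.

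Members near the outer ends of genes were stronger. Up to 2000 bp from the nearest end the median WT fold enrichment was 16.2 and the median width 1089 bp (n = 705). Over 50000 bp away they were 11.2 and 535 bp (n = 1908). The median distance of all members was 20575 bp (quartiles 6108 and 56981 bp). Just inside the limit of 1000 bp lay members at SLC16A7, a monocarboxylate transporter gene (WT 23.1), at DLL3 (another peak than the one above, WT 35.1) and one shared by LOXL3 and DOK1 (WT 6.88). Common peaks just outside the rule lay at TMEM65 (1000 bp, 15.7), EPHB2 (997 bp, 11.5) and CLDND2 (996 bp, 17.7). Of WT gene-body peaks, 58.6% were overlapped in both mutant lists, a share that the rule itself uses; it was 67.7% up to 2000 bp and 52.8% beyond 50000 bp.

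Along the gene, members were more frequent towards the 5′ side. Of 5407 members in a single host gene of known strand, 14.0% lay in the first 10% of its length (13.1 to 15) and 6.86% in the last 10% (6.20 to 7.57). Up to 2000 bp from the outer start there were 435 members, and up to 2000 bp from the far end 88, with median WT values of 18.1 and 14.8. Over 5000 and up to 10000 bp away the numbers were 432 and 380. Without members within 1000 bp of any listed start, the first 10% held 10.4% (9.44 to 11.3) and the last 8.28% (7.45 to 9.18) of 4044. WT-only peaks, with those near listed starts kept in, had 11.3% (10.1 to 12.6) and 7.34% (6.38 to 8.40) there. The members away from listed starts were thus spread more evenly along the gene than all members were. The length left in each 10% without the surroundings of listed starts was not counted, so these shares are not rates per length.

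**Figure D4:**
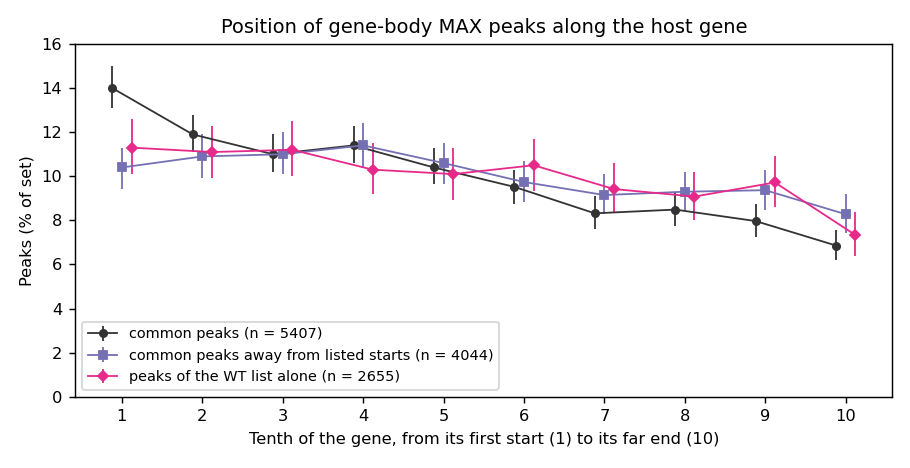
Share of peaks (% of each set, with 95% Clopper-Pearson intervals) in each 10% of the length of the host gene, from its outer start to its far end, for all members with known strand, for members away from listed starts, and for gene-body peaks of the WT list alone. All members fall from 14.0% to 6.86%, whereas those away from listed starts run from 10.4% to 8.28%.

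The members lay in 3908 genes, or 20.9% of the 18680 protein-coding genes with room for one. Of these genes 2571 had 1 member, 1116 had 2 to 4, 221 had 5 or more and 32 had 10 or more. Genes with a member were long, with a median searched length (inside the gene and over 1000 bp from every gene end) of 70.3 kb against 19.2 kb in genes without. A member was found in 3.84% of genes with up to 5000 bp to search and in 61.3% of those with over 300000 bp. Per length the order was the reverse, with 16.8 members per Mb in the former and 3.49 per Mb in the latter. Over the whole 1219 Mb searched there were 5.57 members per Mb. By chromosome the density was highest on chromosome 22 (13.2 per Mb) and 19 (11.2) and lowest on X (1.91).

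The genes with the most members were GSE1, LRMDA, DLGAP1, SMAD3 and GNG7. GSE1, a gene of a histone deacetylase complex, held 21 members, with WT fold enrichments from 5.60 to 33.9 and a median of 12; in 3A the median was 11.8 and in 7A 11. LRMDA, a gene of melanocyte differentiation, held 19 (WT median 7.81, 3A 10.9, 7A 9.23), with 1 at 43.6 in WT. DLGAP1, a postsynaptic scaffold gene, held 18 (7.81, 9.57 and 8.45). LRMDA and DLGAP1 are both about a Mb long (1128545 and 959276 bp), and their densities were 16.9 and 18.8 per Mb.

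SMAD3, the transcription factor that carries TGF-beta signals, stood out by density among these 5, with 17 members in 127.6 kb of searched length, or 133 per Mb. Of its 18 WT gene-body peaks 17 were members. Their WT values ran from 4.23 to 26.9 (median 10.1), their 3A values from 4.73 to 23.5 (12.3) and their 7A values from 5.11 to 19.2 (9.78), and 2 of the 17 lay within 1000 bp of a listed start. GNG7, a G protein gamma subunit gene, held 16 members, none near a listed start, at 85.5 per Mb. They were stronger, with WT values from 4.63 to 76.8 (median 19.7) and medians of 15.8 in 3A and 17.6 in 7A. The GNG7 medians lie above the medians of all members in each list, and those of SMAD3 do so in 3A alone.

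Gene groups were described by how many members of a fixed list held a gene-body peak, beside 20.9% of all genes. Because longer genes hold members more often, the searched length is given for each; the median over all genes was 25.1 kb and the density, counted gene by gene, 5.56 per Mb.

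Of 40 genes of actin cytoskeleton and focal adhesion 26 held a member (65%, 95% Clopper-Pearson interval 48.3 to 79.4; median searched length 103 kb; 13.0 per Mb), 88 members in all. PARVB, an adhesion adaptor, led with 48.2 (WT), 18.3 (3A) and 30.9 (7A), the order kept below, before LASP1 (39.1, 16.7 and 17.1), LPP (38.5, 12.2 and 13.1) and LIMA1 (36.2, 32.8 and 30.8). Receptor tyrosine kinases had 23 of 34 (67.6%, 49.5 to 82.6; 63.0 kb; 10.4 per Mb), led by MERTK with 60, 60.3 and 55.1, IGF1R, the receptor of insulin-like growth factor, with 55.1, 25.1 and 36.1, FGFR1 (54.3, 15.5 and 33.2) and AXL (50.8, 37.8 and 25.8). Each of these groups is also longer than the median gene, and the part of length in their shares was not tested.

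TGF-beta and SMAD signalling had 16 of 30 genes with a member (53.3%, 34.3 to 71.7; 63.4 kb), at 19.2 members per Mb. ACVR2B, an activin receptor, had 65.9 (WT), 23.4 (3A) and 35.2 (7A), TGIF1 had 36.5, 24.7 and 29.3, LTBP4 34.6, 18.6 and 27.6, and TGFBI 30.6, 32.1 and 26.1. SMAD3 holds 17 of the group's 48 members. The TEAD and YAP pathway, which reads cell contact and tension, had 12 of 22 (54.5%, 32.2 to 75.6; 61.0 kb; 14.0 per Mb), led by AXL, VGLL4 (33.7, 15.4 and 11.4), TEAD1 (31.6, 22.9 and 14.0) and AJUBA (26.4, 16.7 and 19.9). VGLL4, a TEAD cofactor, held 9 members.

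Among the groups of transcription factors and clock genes, the circadian clock had 11 of 20 (55.0%, 31.5 to 76.9; 31.9 kb; 9.95 per Mb). Its repressor NR1D1 had 59.3, 38.3 and 38.0, the output factors TEF 47.2, 64.0 and 86.6 and DBP 39.3, 41.2 and 33.7, and the kinase gene CSNK1E 30.4, 30.4 and 24.4. The AP-1 family had 5 of 11 (45.5%, 16.7 to 76.6; 11 kb; 38.2 per Mb), with FOSL1 at 50.1, 40 and 46.6, MAFK at 28.6, 24.4 and 29.2, MAFG at 25.6, 23.5 and 13.8 and ATF3 at 22, 15 and 15. Nuclear receptors had 14 of 27 (51.9%, 31.9 to 71.3; 46.5 kb; 8.55 per Mb), with THRA at 30.7, 8.69 and 9.12, RXRA at 24.0, 16.9 and 13.0, PPARD at 20.6, 24.5 and 21.4 and RARA at 20.1, 18.8 and 18.0. Other E-box binding factors had 8 of 26 (30.8%, 14.3 to 51.8; 50.5 kb; 5.38 per Mb), with TCF4 at 20, 20.2 and 27.3, TWIST2 at 18.9, 21.8 and 20.4, MITF at 17.2, 7.45 and 11.4 and TFEB at 17.0, 19.9 and 11.4. The intervals of these 4 groups overlap, and those of the AP-1 family and of the other E-box factors hold the 20.9% of all genes. The members of NR1D1, CSNK1E and FOSL1 lay 1127, 1006 and 1083 bp from a gene end, close to the limit of 1000 bp.

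**Figure D5:**
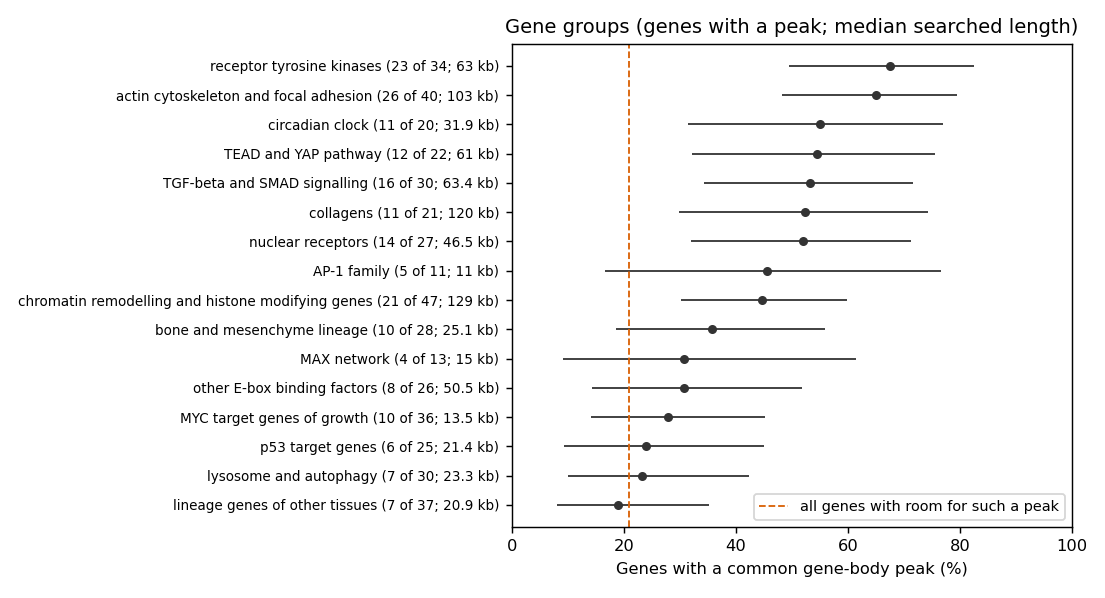
Share of genes with a member (%, points, with 95% Clopper-Pearson intervals) in the gene groups; labels give the genes with a member of those with room for one and the median searched length in kb, and the dashed line is the 20.9% of all genes. Receptor tyrosine kinases (67.6%) and actin and adhesion genes (65%) stand farthest to the right, and lineage genes of other tissues (18.9%) and lysosome genes (23.3%) lie near the line.

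Within the MAX network 4 of 13 genes held a member (30.8%, 9.09 to 61.4; 15 kb). MNT, a MAX-binding repressor, had 119.3 (WT), 74.2 (3A) and 77.5 (7A) at 7153 bp from the nearest gene end. MXI1, another repressor, held 4 members, the strongest at 34.5, 12.4 and 9.48. MGA had 33.6, 30.4 and 43.7 at 55 bp from an interior start. MLXIPL, the glucose-responsive partner of MLX, held 3 members, the strongest at 8.11, 5.06 and 6.92. MYC, MYCN, MYCL, MAX, MXD1, MXD3, MXD4, MLX and MLXIP held none. MYC, MYCN, MYCL, MXD3 and MLX have under 6 kb to search, whereas MAX has 92.6 kb and MLXIP 66.6 kb.

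MYC target genes of growth held a member in 10 of 36 cases (27.8%, 14.2 to 45.2; 13.5 kb; 15.2 per Mb). PTMA had 91.6, 86.3 and 105.0, NPM1, which encodes nucleophosmin, 80.1, 73.3 and 94.1, UBTF, an RNA polymerase I factor, 39.0, 24.7 and 17.2, and RCC1 37.2, 28.7 and 27.5. Among all members, PTMA and NPM1 had ranks 7 and 20 by 3A value and ranks 5 and 6 by 7A value. With a gene-end limit of 500 bp the count was 16 of these genes, and with 2500 bp it was 6, without PTMA and NPM1, which lie 1798 and 1420 bp from an end.

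Chromatin genes had 21 of 47 with a member (44.7%, 30.2 to 59.9; 129 kb; 6.51 per Mb). CHD7, a remodeller, had 79.0, 32.9 and 18.3, SMARCA2 52.2, 14.2 and 18.9 and PRDM16 36.6, 35.6 and 37.4. Collagens had 11 of 21 (52.4%, 29.8 to 74.3; 120 kb; 8.59 per Mb), with COL5A3 at 33.1, 12.7 and 27.4, COL27A1 at 28.9, 12.1 and 9.82, COL18A1 at 19.8, 26.7 and 25.8 and COL4A2 at 14.5, 9.55 and 8.09. The p53 targets had 6 of 25 (24.0%, 9.36 to 45.1; 21.4 kb), led by AEN (69.2, 53.2 and 37.4), an apoptosis nuclease, with BBC3 at 29.3, 30.8 and 15.8, ZMAT3 at 18.9, 9.85 and 12.3 and CDKN1A at 13.6, 18.2 and 14.1. Lysosome and autophagy had 7 of 30 (23.3%, 9.93 to 42.3; 23.3 kb), led by SQSTM1, an autophagy receptor, with 67.3, 54.6 and 77.0, before ATP6V1A (26.5, 16.1 and 15.4), ULK1 (19.4, 29.9 and 36.7) and ATG9B (16.1, 9.20 and 5.84). The intervals of the p53 and lysosome shares hold the 20.9% of all genes.

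Bone and mesenchyme lineage genes, the tissue from which the line came, had 10 of 28 with a member (35.7%, 18.6 to 55.9; 25.1 kb; 7.79 per Mb). RUNX1 had 34, 22.2 and 24.9, LRP5, a WNT coreceptor of bone, 22.6, 18.2 and 14.1, and PRRX1 20.1, 7.61 and 12.3. Lineage genes of other tissues had 7 of 37 (18.9%, 7.96 to 35.2; 20.9 kb; 8.42 per Mb). RBFOX3, a neuronal splicing factor, led them with 78.4, 24.0 and 40.4 and held 7 members, followed by UMOD (28.4, 10.3 and 24.3), PECAM1 (12.4, 11.5 and 9.24) and NPHS1 (12, 9.16 and 11.4). The intervals of the 2 lineage groups overlap, and the difference between their shares was not tested.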

How the data were processed

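MAX ChIP-Rx peaks from U2OS cells were analysed as deposited. The submitters' processing notes name MACS2, Bowtie2, cutadapt, Picard and SAMtools, and as builds mm10, hg38 and hg19, without versions or roles. Control, scaling to mouse reads and pooling are not given in the sources used here, nor is read depth. The deposited lists give a fold enrichment (a linear ratio), −log10 q (lowest 5.15 in WT, 5.04 in 3A and 5.69 in 7A), a summit offset as another number per the file layout, and a score, which as deposited is 10 times −log10 q rounded down in at least 99.6% of peaks. The −log10 p column was not used. Peak ends beyond the hg19 length of chromosome 17 place the lists on hg38.

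Genes, starts and sequences are RefSeq, GRCh38.p14. All names of the gene lists were matched. Members, gene lists and measures were chosen with earlier results of these data known. Named are the 10 strongest WT members, the 5 strongest of each mutant list, the 5 genes with most members, 3 peaks on each side of the distance limit, up to 4 genes per list and the MAX network. Some of the genes so chosen are not reported here. The planned E-box count at every summit was replaced by start windows, after the files were seen, since a genome sequence was not used here. Shares have exact Clopper-Pearson intervals at 95%, and medians order-statistic intervals; no test was made. Overlap, placing and motif steps were tested on simulated data. Software was SciPy 1.17.1, NumPy 2.4.6, pandas 2.3.3 and, for plots, matplotlib 3.10.9, under Python 3.11.15.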

Additional observations from a re-analysis of the deposited data

How the results depend on the processing

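The 7 alternatives left the number of members within 1.5 times of 6791 (5559 to 7852) and the number of host genes within 1.5 times of 3908 (3258 to 4740). The deposited fold enrichment of a member does not change with the setting; of 87 members chosen by the naming rule, 69 to 87 remained members. With a gene-end limit of 500 bp, members were 33.9% of common peaks and 60.6% of WT gene-body peaks, with a median WT fold enrichment of 12.6, a median width of 666 bp and 16 MYC target genes; with 2500 bp these were 25.5%, 57.5%, 11.7, 582.5 bp and 6. Kept away from the ends of all genes, non-coding ones included, they were 26.6% and 57.4%, with 11.9 and 594 bp. The named members lost in that setting include those of LARP1, LPO, BRWD1, TEF, IGF1R and TGIF1. An overlap of 50% of both peaks gave 28.7%, 51.9% and 594 bp. Summits within 100 bp gave 49.3% of WT gene-body peaks, 578 bp, and summit distances of 11 bp in 3A and 11 bp in 7A, which this setting bounds. Lists of equal length gave 28.3% and 70.5%, 14.1 and 681 bp, summit distances of 12 and 12 bp, and a median of 14.6 for start windows without CACGTG, where the median with it was 29.6. In all 7 settings the median with CACGTG was the higher one; this measure and its alternatives were chosen after seeing the data. The window sizes planned for an E-box count at every summit were not run. Other counts of genes per list stayed within 1.5 times. Apart from the summit limit, the cause of these shifts was not tested. No paired analysis was possible because the lists carry no replicate values. With 1 list per MYC form and unknown depth, no difference between lists could be tested.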
